A study of Mus musculus with 8 samples.

Results

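The H3K27Ac ChIP-Seq peaks of 9 BCL2 family genes were described in hearts with and without *Arid1a*. A peak was counted to a gene when the curated RefSeq transcription start nearest to its centre belonged to that gene, which gave 30 of the 45980 peaks placed on chromosomes, from 45987 in all. *Bcl2l11* held 10 of them, *Bcl2* 6, *Mcl1* and *Bnip3l* 3 each, *Bcl2l1*, *Bbc3* and *Bnip3* 2 each, and *Bax* and *Bak1* 1 each. The 9 genes were chosen by name with the measured differences of these peaks already known, so every difference below is a description and carries no test.

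H3K27Ac, acetylation of lysine 27 of histone H3, marks active promoters and enhancers. The mark was profiled in ventricles of mice at postnatal day 7 (P7), in 2 controls of genotype Arid1a f/f and in 2 *Arid1a cKO* animals of genotype aMHC-Cre;Arid1a f/f. Both groups carried floxed *Arid1a* alleles, and only the mutants carried the Cre transgene, whose promoter (αMHC) is active in cardiomyocytes. Input libraries without antibody from both groups complete the 8 samples. The chromatin came from whole ventricles, which also hold fibroblasts, endothelial cells and other cell types, so fewer cells of a type and less signal per cell cannot be told apart.

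For every peak and group, the table that the authors deposited holds a single log2 value, taken from the mean normalized reads of 2 libraries. Values of single libraries are not in it (0 columns). Library depth is therefore unknown, and no spread between replicates could be computed. The table also holds the authors' own test of each peak over the replicates, which was not used, so the differences below are not set against replicate error. The levels below are these group means, in normalized reads, and a difference is the log2 mean of *Arid1a cKO* minus that of the controls. A peak is called past 2-fold when the difference was at least 1 in size and the higher group mean was above 3 normalized reads. Where the other group mean was at or under 3, the fold is a lower bound computed against 3. Of the 8 cardiomyocyte marker genes, all had a peak, with summed differences between -0.46 and 2.24 (*Nppa*) and a median of -0.10. The 5 fibroblast marker genes had summed differences between 0.35 and 0.58, and those of 5 endothelial marker genes lay between -0.03 and 0.06. Of 5 leukocyte marker genes, 4 had a peak (*Lyz2* had none), with summed differences between -0.59 and 0.88, and 4 smooth muscle and pericyte marker genes lay between -0.12 and 0.83. Of 5 marker genes of other organs, *Alb*, *Myod1* and *Cd3e* had no peak, while *Neurod1* and *Ins2* did. The part of these cell types in the results on the BCL2 family was not tested. The *Arid1a* gene itself had 2 peaks, with differences of -0.02 and 0.05, and acetylation there does not measure the deletion.

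Proteins of the BCL2 family decide at the mitochondrial outer membrane whether a cell starts apoptosis. Pro-survival members (BCL2, BCL-XL from *Bcl2l1*, and MCL1) hold the effectors BAX and BAK in check, and BH3-only proteins such as BIM, the product of *Bcl2l11*, and PUMA, the product of *Bbc3*, bind the pro-survival members and set the effectors free to make the membrane leaky for cytochrome c. BNIP3 and its relative NIX, from *Bnip3l*, are outer membrane proteins with a BH3-like stretch that are best known as receptors for mitophagy, the removal of mitochondria by autophagy.

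The reference sequences under some of the peaks described below, the *Bcl2l11* start peak not among them, are shown first. For *Bcl2l11* they are the central 300 bases of 4 peaks with lower H3K27Ac in *Arid1a cKO* and of 1 peak in the same region that was not lower. The central 300 bases of the *Bcl2* peak with the largest rise among the member peaks follow. The last line gives the 250 bases upstream of the *Bnip3* start, shown because its start peak was nearly level while the sequence holds the core of the element bound by hypoxia-inducible factors. All were read from the mouse reference GRCm38.p6, the assembly that mm10 stands for, and the *Bnip3* sequence also stands in the RefSeq promoter table. Peaks are named by the distance of their centre from the nearest start of the gene, with a minus sign for upstream. Capitals mark matches, on either strand, to any of 7 short motifs described below. Every line runs 5′ to 3′ on the strand given.
Bcl2l11 peak at -84.6 kb, chr2:128041274-128041573, plus strand: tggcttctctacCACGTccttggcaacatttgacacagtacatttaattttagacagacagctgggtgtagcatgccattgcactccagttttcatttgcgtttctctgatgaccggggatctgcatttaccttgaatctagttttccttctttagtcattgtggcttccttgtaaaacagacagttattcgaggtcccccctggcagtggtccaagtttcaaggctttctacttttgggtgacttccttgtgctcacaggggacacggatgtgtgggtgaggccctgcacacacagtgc
Bcl2l11 peak at +11.1 kb, chr2:128138500-128138799, plus strand: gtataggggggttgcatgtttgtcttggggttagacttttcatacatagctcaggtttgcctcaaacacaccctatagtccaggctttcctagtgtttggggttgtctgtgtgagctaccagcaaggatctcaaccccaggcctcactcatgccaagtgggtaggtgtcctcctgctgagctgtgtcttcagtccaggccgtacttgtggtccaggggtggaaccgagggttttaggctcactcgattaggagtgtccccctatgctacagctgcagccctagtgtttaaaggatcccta
Bcl2l11 peak at +39.5 kb, chr2:128166893-128167192, plus strand: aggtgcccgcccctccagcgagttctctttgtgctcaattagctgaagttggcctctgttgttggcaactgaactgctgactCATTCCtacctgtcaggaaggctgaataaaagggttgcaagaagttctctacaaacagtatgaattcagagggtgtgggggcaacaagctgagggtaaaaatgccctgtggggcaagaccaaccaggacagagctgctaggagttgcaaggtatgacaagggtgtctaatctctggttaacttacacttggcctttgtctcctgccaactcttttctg
Bcl2l11 peak at +60.6 kb, chr2:128188029-128188328, plus strand: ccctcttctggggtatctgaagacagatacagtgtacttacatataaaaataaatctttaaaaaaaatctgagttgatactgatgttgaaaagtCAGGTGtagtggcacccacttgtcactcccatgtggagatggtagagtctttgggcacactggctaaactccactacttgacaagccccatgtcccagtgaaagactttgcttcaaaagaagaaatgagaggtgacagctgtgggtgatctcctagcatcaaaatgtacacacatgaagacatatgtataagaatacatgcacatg
Bcl2l11 peak at +83.8 kb, chr2:128211270-128211569, plus strand: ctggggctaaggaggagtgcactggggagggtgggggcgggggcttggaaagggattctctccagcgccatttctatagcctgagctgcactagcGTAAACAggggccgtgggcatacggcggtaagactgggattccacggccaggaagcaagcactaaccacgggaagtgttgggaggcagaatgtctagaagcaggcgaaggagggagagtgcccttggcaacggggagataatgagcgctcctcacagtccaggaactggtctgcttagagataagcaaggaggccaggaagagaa
Bcl2 peak at +82.6 kb, chr1:106631541-106631840, plus strand: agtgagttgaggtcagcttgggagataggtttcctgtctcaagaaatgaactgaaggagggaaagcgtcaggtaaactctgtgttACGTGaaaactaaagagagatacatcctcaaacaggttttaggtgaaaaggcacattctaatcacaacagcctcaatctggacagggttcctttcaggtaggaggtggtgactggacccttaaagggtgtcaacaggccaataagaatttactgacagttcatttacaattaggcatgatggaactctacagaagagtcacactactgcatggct
Bnip3 upstream of its start, chr7:138909507-138909756, minus strand: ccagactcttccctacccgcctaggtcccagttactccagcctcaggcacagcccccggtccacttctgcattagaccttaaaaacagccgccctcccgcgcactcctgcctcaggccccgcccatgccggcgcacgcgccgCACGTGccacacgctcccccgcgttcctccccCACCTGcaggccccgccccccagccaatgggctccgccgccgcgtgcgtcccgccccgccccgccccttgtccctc

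H3K27Ac was lower over most of the *Bcl2l11* region in *Arid1a cKO* hearts than in controls. The other 8 genes differed little apart from 2 intronic peaks of *Bcl2* and a *Bnip3* peak. Their differences were 0.96 (*Bcl2* at +82.6 kb), 0.56 (*Bcl2* at +26.2 kb) and -0.50 (*Bnip3* at -9.97 kb). Of the 30 member peaks, 7 were past 2-fold lower and 0 past 2-fold higher, and all 7 belonged to *Bcl2l11*. Over all 45980 peaks, 10.6% were past 2-fold lower and 4.57% past 2-fold higher. The *Bcl2l11* peaks had a median difference of -1.09, against 0.02 for the 20 peaks of the other members and 0.01 for all peaks. These medians did not move when the 1 member peak with a group mean at or under 3 reads was set to its bound. Of the 20 peaks of the other members, 18 lay within 0.5 of no difference. The *Bcl2l11* peaks only just past the 2-fold limit had differences of -1.02 and -1.04, and the nearest that fell short of it was the *Bcl2* peak at 0.96.

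**Figure D1:**
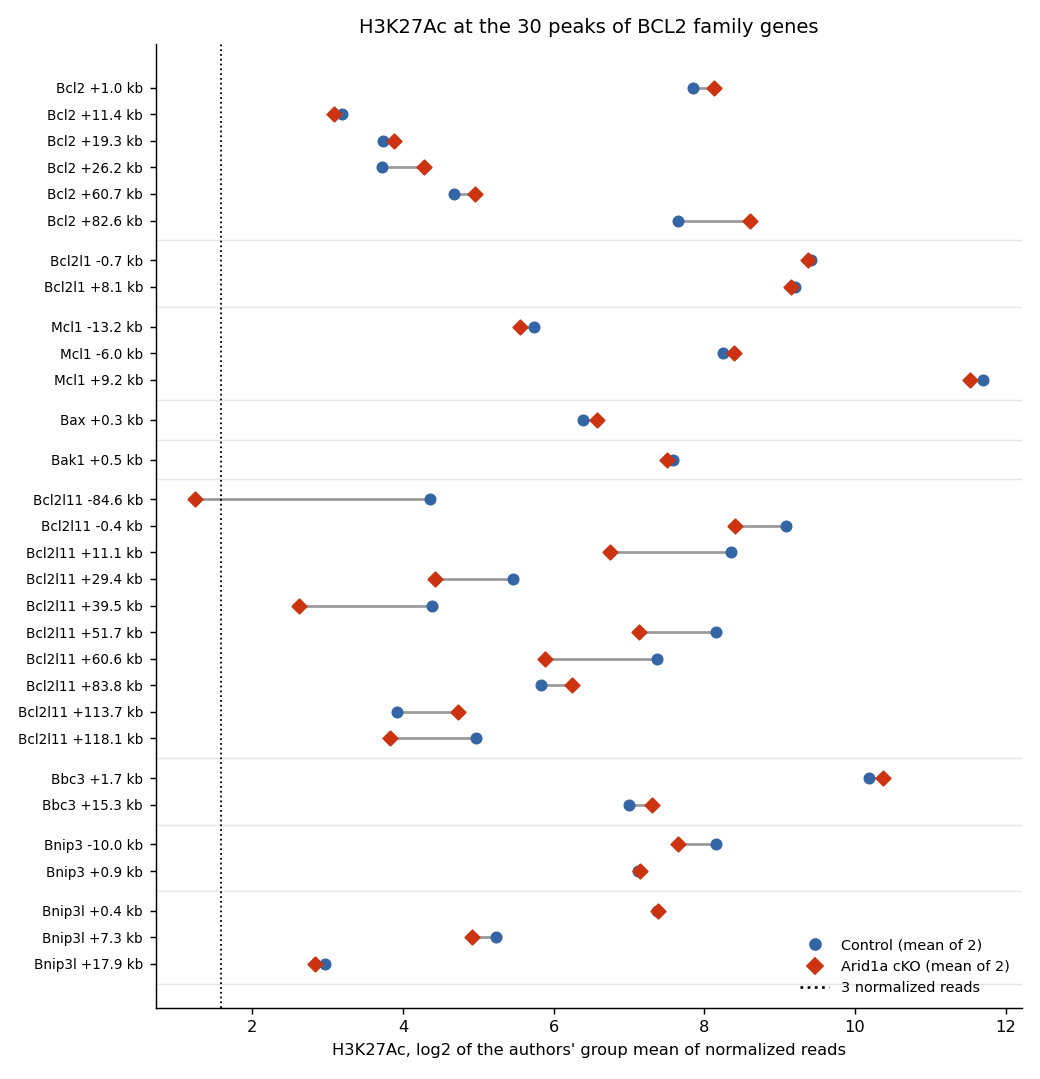
H3K27Ac at the 30 peaks of the 9 genes, one row per peak named by gene and by the distance of its centre from the nearest start of that gene in kb, with the horizontal axis giving the log2 of the group mean of normalized reads. Blue circles are the mean of 2 controls, red diamonds the mean of 2 *Arid1a cKO* hearts, grey bars join them, and the dotted line marks 3 normalized reads. The long bars with the red diamond on the left are *Bcl2l11* peaks, the longest the one at -84.6 kb with 20.5 reads in controls and 2.36 in *Arid1a cKO*.

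The BH3-only gene *Bcl2l11* lies on the plus strand at chr2:128126038-128162547 (mm10), with 5 curated transcripts from 2 starts. Its start peak (chr2:128125213-128129131) covers both starts and held 541 reads in controls and 340.1 in *Arid1a cKO*. The difference of -0.67 corresponds to a 1.59-fold lower mean. This was the lowest difference among the 9 member peaks that cover a start, which otherwise lay between -0.17 and 0.28. Of all 12022 start-covering peaks in the table, 405 (3.37%) were as low or lower, and 204 (1.70%) were past 2-fold lower.

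The largest loss of reads fell on a 4829-bp peak in an intron (chr2:128136235-128141063, +11.1 kb). It went from 326 normalized reads in controls to 108 in *Arid1a cKO*, a difference of -1.60 and a 3.03-fold lower mean. Among the 4317 peaks with at least its control mean, 42 (0.973%) had a difference as low. The peak was picked for its loss of reads, so this share too is only a description. Over all peaks, weak ones included, its difference stood at percentile 5.53. A second intronic peak at +29.4 kb (chr2:128156030-128157954) held 44.0 reads in controls and 21.4 in *Arid1a cKO*, with a difference of -1.04. Both intronic peaks were thus past 2-fold lower, whereas the start peak was not.

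Downstream of the gene end, 3 peaks in a row were past 2-fold lower. The peak at +39.5 kb (chr2:128166577-128167507) held 20.8 reads in controls and 6.15 in *Arid1a cKO*, with a difference of -1.76. At +51.7 kb (chr2:128176508-128182081) the means were 284 and 140.1, a difference of -1.02, the smallest in size of the 7. At +60.6 kb (chr2:128185506-128190851) they were 165 and 59.3, a difference of -1.48. Both of these wide peaks, of 5574 and 5346 bp, lie downstream of the curated gene.

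Farther out the direction was mixed. The peak at +83.8 kb (chr2:128210189-128212650) held 56.9 reads in controls and 75.6 in *Arid1a cKO*, a difference of 0.41. The peak at +113.7 kb (chr2:128240546-128241989) held 15.1 and 26.5, a difference of 0.81. The most distant peak, at +118.1 kb (chr2:128245062-128246381), held 31.3 and 14.2, a difference of -1.14. The outermost peaks, neighbours on the map, thus went in opposite directions at low levels.

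Upstream, the only peak assigned to the gene lies at -84.6 kb (chr2:128041029-128041817), inside an intron of *Acoxl*, a peroxisomal oxidase-like gene next to *Bcl2l11*. It held 20.5 reads in controls and 2.36 in *Arid1a cKO*, at least 6.84-fold lower. Its deposited means differ by -3.12, and 653 of all 45980 peaks (1.42%) had a difference as low. It is a narrow peak of 789 bp, and its control level was below the median of 44.9 over all peaks.

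Summed over the 10 peaks, *Bcl2l11* held 1506 reads in controls and 793 in *Arid1a cKO*, a summed difference of -0.92. The start peak made up 28.2% of the summed loss, the +11.1 kb peak 30.7%, the +51.7 kb peak 20.2% and the +60.6 kb peak 14.9%. The low -84.6 kb and +39.5 kb peaks, which had the lowest differences, made up 2.55% and 2.06%. The 9 peaks other than the start peak together went from 964 to 453 reads, a summed difference of -1.09, against -0.67 at the start peak. Of 15765 genes with a peak, 5.43% had a summed difference at or below that of *Bcl2l11*. Among the 748 genes with at least 10 peaks, 10 including *Bcl2l11* had a share of peaks past 2-fold lower of at least 70%, the median share was 7.14%, and 299 genes had no such peak.

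**Figure D2:**
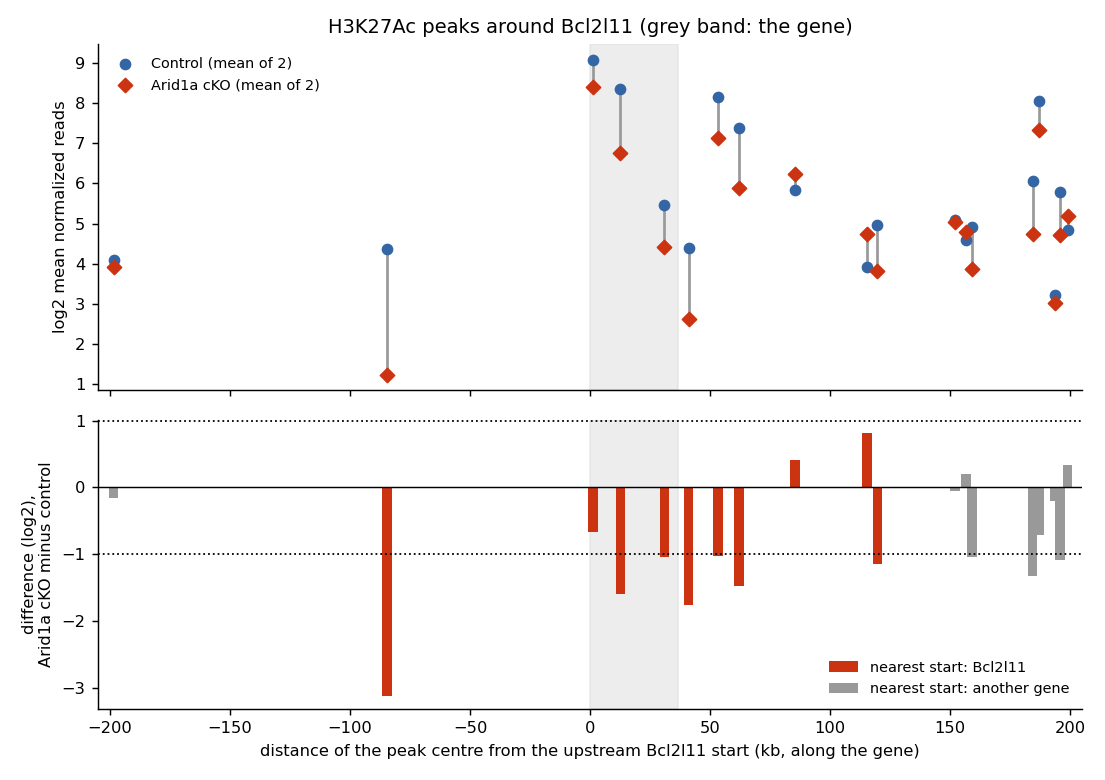
H3K27Ac at all 19 peaks centred within 200 kb of the upstream *Bcl2l11* start, with the horizontal axis giving the distance of the peak centre from that start in kb along the gene and the grey band marking the gene. The upper panel gives the log2 group means (blue circles, mean of 2 controls; red diamonds, mean of 2 *Arid1a cKO* hearts) and the lower panel their difference, in red for peaks whose nearest start is *Bcl2l11* and in grey for other genes, with dotted lines at 1 and -1. Of these peaks, 10 pass the lower line and 0 the upper, and the 2 red bars above zero lie downstream of the gene.

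The peaks around *Bcl2l11* that were counted to other genes also included lower ones. Within 200 kb of its start, 10 of 19 peaks (52.6%) were past 2-fold lower and 0 past 2-fold higher, and 3 of these 10 had another nearest gene. Those 3 lie in or near *Morrbid* (chr2:128298663-128429351), a long noncoding RNA gene known to repress *Bcl2l11* in short-lived myeloid cells, and have *Gm14010* as their nearest start. Of 12 peaks centred in the body of *Morrbid*, 3 were past 2-fold lower and 0 past 2-fold higher, with a median difference of -0.185. The 5 peaks nearest to the *Morrbid* start itself were past 2-fold in neither direction. Their median difference was -0.21, while their summed difference was 0.21, with the strongest peak going from 365 to 458 reads. On the other side, the peak counted to *Acoxl* within this window, at -198 kb, had a difference of -0.16. Beyond the window, the peak over the *Acoxl* start (chr2:127854091-127855339) held 26.5 reads in controls and 5.70 in *Arid1a cKO*, a difference of -2.22. In the same windows around the starts of the other 8 members, between 0 and 3 peaks were past 2-fold lower, out of 4 to 30.

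How many lower peaks are counted to *Bcl2l11* depends on the rule of assignment. With predicted transcripts as well, the noncoding gene *Gm14009* takes peaks downstream of *Bcl2l11*, which keeps 3 peaks of which 2 were past 2-fold lower. Within the gene and 5 kb around it, or within 50 kb of its start, it had 4 peaks with 3 past 2-fold lower, and with protein-coding starts alone 19 peaks with 10. The summed difference was between -0.80 and -0.98 under these 4 rules.

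The second BH3-only member, *Bbc3* (chr7:16309583-16318334, plus strand), is known as a target of p53. Its start peak (chr7:16308312-16315996) held 1168 reads in controls and 1323 in *Arid1a cKO*, a difference of 0.18. A peak at +15.3 kb (chr7:16324129-16327315), in an intron of the neighbouring gene *Sae1*, held 128 and 159 reads, a difference of 0.31. The summed difference of *Bbc3* was 0.19, so the 2 BH3-only members differed in opposite directions.

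Of the pro-survival genes, *Bcl2* (chr1:106538176-106714290, minus strand) had the largest rise. Its intronic peak at +82.6 kb (chr1:106628823-106634557) held 201 reads in controls and 391 in *Arid1a cKO*, a difference of 0.96 and a 1.95-fold higher mean, just under the 2-fold limit. Among the 7710 peaks with at least its control mean, 4 (0.0519%), itself included, had a difference as high. That set leaves out peaks that rose from a lower control mean. The peak was picked for its rise, so the share describes its place and is no test. Over all peaks, weak ones included, its difference stood at percentile 95.1. The start peak (chr1:106711275-106715343) held 231 and 280.1 reads, a difference of 0.28.

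The other 4 *Bcl2* peaks lie in the same gene between +11.4 and +60.7 kb and were low. They held 9.13 to 25.6 reads in controls and 8.51 to 30.9 in *Arid1a cKO*, with differences of -0.10 at +11.4 kb, 0.14 at +19.3 kb, 0.56 at +26.2 kb and 0.27 at +60.7 kb. Summed over 6 peaks, *Bcl2* went from 493 to 744 reads, a summed difference of 0.59, and 75.5% of the gain came from the +82.6 kb peak. Without that peak the sum went from 292 to 354, a difference of 0.28. Inside the gene, 3 more peaks have the microRNA gene *Mir3473f* as their nearest start, with differences of 0.00, -0.27 and 0.90.

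*Bcl2l1* (chr2:152758732-152831728, minus strand), on the same chromosome as *Bcl2l11*, was nearly level. Its start peak (chr2:152826320-152832110) held 680.3 reads in controls and 662 in *Arid1a cKO*, a difference of -0.04, and its +8.11 kb peak (chr2:152815965-152824793) held 592 and 568, a difference of -0.06. Inside or next to the gene, 7 further peaks have *Cox4i2* or *Gm32211* as their nearest start, with differences between -0.24 and 0.87.

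*Mcl1* (chr3:95658721-95663179, plus strand), whose protein is short-lived and needed by cardiomyocytes, had the strongest peak of the family. This 21053-bp peak (chr3:95657381-95678433) covers the whole gene and held 3327 reads in controls and 2957 in *Arid1a cKO*, a difference of -0.17. The upstream peaks at -13.2 kb (chr3:95644499-95646478) and -5.99 kb (chr3:95649573-95655887) held 53.4 and 304 reads in controls and 46.9 and 335 in *Arid1a cKO*. Their differences were -0.19 and 0.14, so no *Mcl1* peak differed by more than 0.19 in size.

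The effector genes each had a single peak, over the start. At *Bax* (chr7:45465792-45467321) it held 83.9 reads in controls and 95.0 in *Arid1a cKO*, a difference of 0.18. At *Bak1* (chr17:27027004-27029198) it held 191 and 182, a difference of -0.07. A peak counted to *Ggnbp1* (chr17:27032374-27033161) lies just upstream of *Bak1* and went from 2.39 to 14.2 reads, at least 4.74-fold higher.

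*Bnip3* (chr7:138890836-138909506, minus strand), a known target of hypoxia-inducible factors, had the lowest difference outside *Bcl2l11*. Its peak at -9.97 kb (chr7:138918421-138920528) held 284 reads in controls and 201 in *Arid1a cKO*, a difference of -0.50. Its start peak (chr7:138906456-138910744), which covers the upstream sequence printed above, held 139 and 141, a difference of 0.02. At *Bnip3l* (chr14:66985240-67008877, minus strand) the start peak (chr14:67006644-67010330) held 165 and 168, also a difference of 0.02, and intronic peaks at +7.27 and +17.9 kb had differences of -0.31 and -0.14 at 37.5 and 7.84 control reads.

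By role, 12 BH3-only peaks had a median difference of -1.03, 10 of them from *Bcl2l11*, 11 pro-survival peaks one of 0.14, 5 BNIP3-type peaks one of -0.14, and the 2 effector peaks one of 0.055. By position, 0 of the 9 start-covering member peaks and 7 of the 21 that cover no start were past 2-fold lower. Over all peaks, 1.70% of those that cover a start were past 2-fold lower. Split instead by the distance of the centre, the share was 4.1% within 5 kb of a start and 13.7% farther away. Without *Bcl2l11*, 0 of 12 member peaks that cover no start were past 2-fold lower, with a median difference of 0.04.

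**Figure D3:**
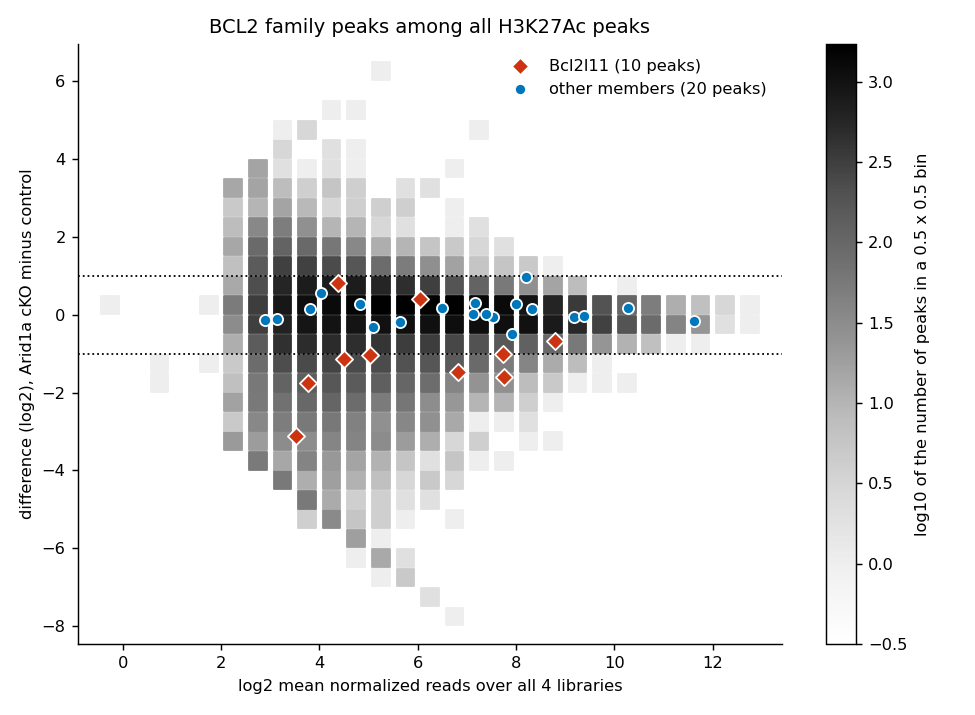
Difference in H3K27Ac against mean level for all 45980 placed peaks, as grey squares shaded by the log10 number of peaks in bins of 0.5 by 0.5, with the 10 *Bcl2l11* peaks as red diamonds and the 20 peaks of the other members as blue circles. The horizontal axis is the log2 mean of normalized reads over all 4 libraries, the vertical axis the log2 difference of the group means (*Arid1a cKO* minus control), and dotted lines mark 1 and -1. Of the red diamonds, 7 lie below the lower line, and 0 blue circles lie outside the lines.

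Levels of different genes were compared per kb of peak, on the linear scale of normalized reads. In controls the order was *Mcl1* (126), *Bbc3* (119), *Bak1* (87.2), *Bcl2l1* (87.0), *Bnip3* (66.1), *Bax* (54.8), *Bcl2l11* (52.8), *Bcl2* (34.8) and *Bnip3l* (29.0). In *Arid1a cKO* it was *Bbc3* (136), *Mcl1* (114), *Bcl2l1* (84.1), *Bak1* (83.0), *Bax* (62.1), *Bnip3* (53.4), *Bcl2* (52.5), *Bnip3l* (28.3) and *Bcl2l11* (27.8). *Bcl2l11* thus went from the seventh to the ninth place and *Bcl2* from the eighth to the seventh. With no spread over samples, it cannot be said which neighbours in either order differ.

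The member peaks were wider than most, with a median width of 2579.5 bp (771 to 21053) against 1781 bp over all peaks, and 19 of 30 had a control mean above the median of all peaks. Matches to 7 transcription factor motifs were counted in the central 500 bases of each peak on both strands. The motifs were the TEAD core CATTCC, the E-box CACGTG, the ZEB-type E-box CACCTG, the ESRR half-site AAGGTCA, the FOXO core GTAAACA, the hypoxia element core ACGTG, which also matches inside CACGTG, and the MEF2 core. The ZEB-type E-box was in 4 of 10 *Bcl2l11* peaks and 9 of 20 other member peaks, against 28.0% of all peaks. The TEAD core was in 2 and 3, against 26.4%, the FOXO core in 2 and 2, against 6.78%, and the hypoxia element core in 2 and 7, against 26.5%. The E-box was in 0 and 2 (7.96% of all peaks), the ESRR half-site in 0 and 1 (11.3%), and the MEF2 core in 0 and 2 (2.58%).

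In the sequences printed above, the peak at -84.6 kb holds the hypoxia element core at bases 13 to 17, the +39.5 kb peak the TEAD core at 83 to 88, and the +60.6 kb peak the ZEB-type E-box at 95 to 100. The +83.8 kb peak holds the FOXO core at bases 96 to 102, and the *Bcl2* peak the hypoxia element core at 86 to 90. The +11.1 kb sequence has no match. The *Bnip3* upstream sequence holds the E-box, and in it the hypoxia element core on both strands, at bases 143 to 148 and the ZEB-type E-box at 175 to 180. The 250 bases upstream of *Bax* (at 242 to 247) and of a *Bbc3* start (at 187 to 192) hold the same E-box and core. The start peaks of these genes had differences of 0.18 each. In the same 250 bases of all 32851 RefSeq promoters of the table, the E-box was in 6.02%, the hypoxia element core in 16.6% and the ZEB-type E-box in 17.2%. Of the 9 members, 8 have promoters in that table (13 entries), and *Bnip3l* does not. The 250 bases upstream of the first *Bcl2l11* start hold the FOXO core at bases 24 to 30, as do 3.17% of all promoters.

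The other genes of the pathway, taken from 9 lists of 78 genes, had 234 peaks at 66 of the genes. Of these peaks, 30 (12.8%) were past 2-fold lower and 6 (2.56%) past 2-fold higher, against 10.6% and 4.57% over all peaks. Nearest to the members, the other BCL2 proteins (10 peaks of 4 genes) and the other BH3-only genes (13 peaks of 4 genes) had no peak past 2-fold in either direction, nor had the inhibitors of apoptosis (14 peaks). Among the BNIP and mitophagy receptor genes 1 of 14 peaks was past 2-fold lower, at *Bnip2* (32 to 15.1 reads). Of 17 death receptor peaks 1 was past 2-fold higher (13.8 to 28.1 reads) and 1 past 2-fold lower (a difference of -1), both at the TRAIL receptor gene *Tnfrsf10b*, whose summed difference was -0.17.

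Of 25 peaks at caspase and apoptosome genes, 4 were past 2-fold lower and 1 higher. Lower peaks lay at *Casp2* (25.8 to 4.29 normalized reads) and at *Apaf1*, the scaffold of the apoptosome (15.8 to 6.15), whose 3 peaks had a summed difference of 0.12. Among the VDAC and outer membrane partner genes, 9 of 22 peaks at 3 genes were past 2-fold lower, with a median difference of -0.80. They lay at *Vdac3* (66.3 to 6.19 reads at its lowest peak), *Vdac1* (63.1 to 12.3) and *Ppif*, which encodes cyclophilin D (309 to 72.5). The summed difference of *Ppif* was -0.91, close in value to that of *Bcl2l11*.

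Of 33 peaks at autophagy genes, 8 at 6 genes were past 2-fold lower and 0 higher, with a median difference of -0.30. Among them were intronic peaks of the kinase gene *Ulk1* (at least 8.20-fold lower), the receptor genes *Optn* (at least 3.82-fold lower) and *Sqstm1* (57.7 to 4.76 reads), and *Atg7* (41.4 to 12.8). The lower *Optn* peak held only 11.5 reads in controls, and the summed difference of *Optn* was 0.06. Those of *Ulk1*, *Sqstm1* and *Atg7* were -0.86, -0.30 and -0.47. The genes of upstream regulators had 86 peaks, with 7 past 2-fold lower and 4 higher. *Epas1* (19.8 to 5.70) and *Mdm2* (30.5 to 9.51) had lower peaks, and 1 of 3 *Arnt* peaks was higher (a difference of 1.45). That *Arnt* peak held only 3.29 reads in controls, near the limit of 3 reads, and the summed difference of *Arnt* was -0.02. *Foxo3*, whose product is known to activate *Bcl2l11*, had 12 peaks, of which 3 were past 2-fold lower and 1, near the limit of 3 reads, past 2-fold higher (3.46 to 10.9), with a summed difference of -0.21.

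**Figure D4:**
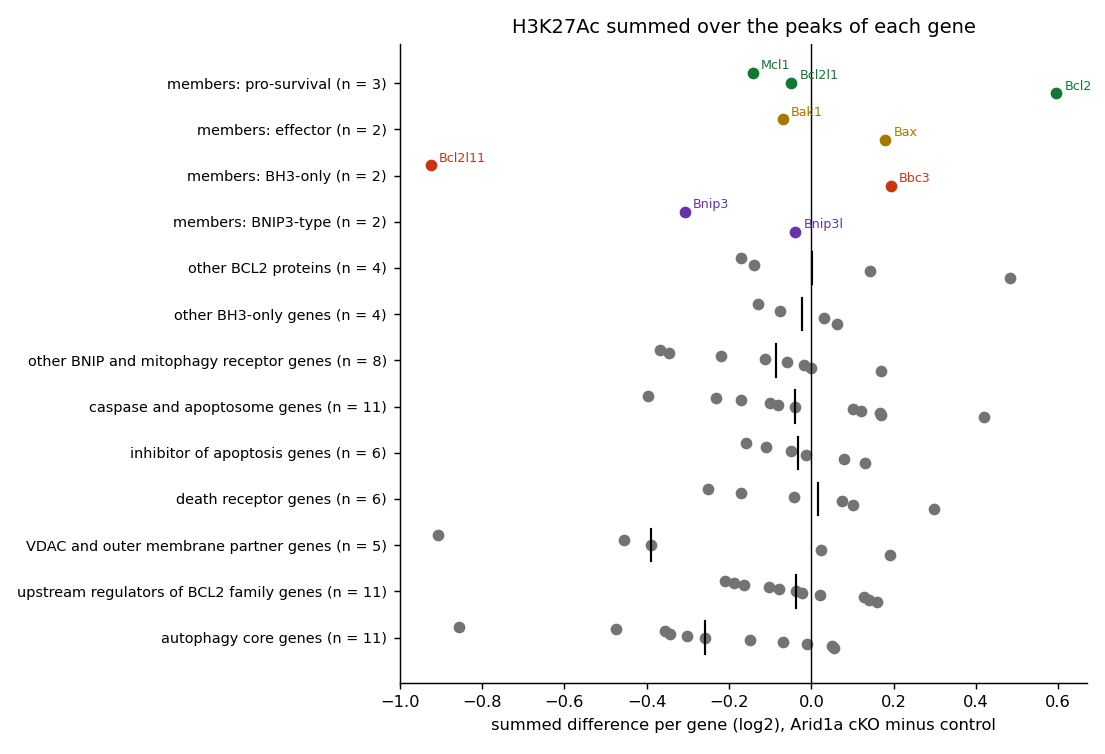
Summed difference in H3K27Ac per gene, the log2 ratio of *Arid1a cKO* to control of the group means summed over a gene's peaks, on the horizontal axis, with the members by role in the upper 4 rows and the 9 pathway lists below. Each point is 1 gene with at least 1 peak, n is the number of genes, and black bars mark the median of a list. *Bcl2l11* lies at -0.92 and *Bcl2* at 0.59, and the other 7 members lie between -0.31 and 0.19.

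By a rule on the number of peaks, the summed control mean and the summed difference, the genes most like *Bcl2l11* among 5400 genes with at least 3 peaks were *1700036G14Rik*, *Jade1* and *Lpin2*. Their distances in log2 units were 0.219, 0.296 and 0.316, over 2 group means. *1700036G14Rik* had 9 peaks with 3 past 2-fold lower and a summed difference of -0.93, *Jade1* 11 with 3 and -0.68, and *Lpin2* 9 with 2 and -1.14. Each thus had fewer peaks past 2-fold lower than the 7 of *Bcl2l11*, a count that the rule did not use. Over all genes, 33 including *Bcl2l11* had at least 7 such peaks.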

How the data were processed

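H3K27Ac ChIP-Seq and input libraries of P7 ventricles were grouped by genotype and antibody as labelled. Per the labels and methods, the authors used BWA (0.7.17-r1188) for mapping to mm10 and HOMER findPeaks for peaks, with all inputs merged as background. Peaks present in a single sample were dropped, and the groups were compared by the authors with DiffBind 2.12.0 and DESeq2 1.24.0. Their deposited table gives log2 mean normalized reads per peak, over all samples and per group, to 2 decimals, so a difference carries a rounding error of up to 0.01. Library scaling and the treatment of input in these values were not given in the sources used here. The table's columns of log2 fold changes, p-values and FDR hold the authors' own comparison and were not used. It has 0 per-sample columns, so no test was run and depth per library is unknown.

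Peaks were joined to GRCm38.p6 and 45756 curated RefSeq transcripts, and 7 peaks on unplaced sequences were left out. Summed differences are log2 ratios of linear group means added over a gene's peaks. The members, gene lists, markers and motifs were chosen with earlier results of these data known. All 9 members were named, together with up to 4 genes per pathway list, those with the largest differences past 2-fold. A gene that this rule names is not reported here. Named by the same rule were the 3 genes nearest to *Bcl2l11*, and a few neighbouring genes were added once their values had been seen. Other settings tried were the assignment to genes, the distance, low peaks, centring, the fold limit, the limit of 3 reads and the way peaks were summed. The steps were tested on simulated data. Python 3.11.15, numpy 2.4.6, pandas 2.3.3, pysam 0.24.0 and matplotlib 3.10.9 were used.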

Additional observations from a re-analysis of the deposited data

How the results depend on the processing

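No paired analysis was possible because the deposited table holds group means only, and for the same reason no replicate could be left out. The count of 7 member peaks past 2-fold lower became 2 with the nearest start of any RefSeq transcript, 3 with peaks in the gene body or within 5 kb, and 3 within 50 kb of the start. It was 10 with protein-coding starts alone, 5 without the 25% of peaks with the lowest level, and 8 at a limit of 1.5-fold. The count of 0 past 2-fold higher became 1 in the gene body or within 5 kb (the *Bak1* peak counted to *Ggnbp1*) and 2 at 1.5-fold (*Bcl2* at +82.6 kb and *Bcl2l11* at +113.7 kb), where 17.3% of all peaks were lower and 12.0% higher. The summed difference of *Bcl2l11* moved from -0.92 to -0.80 with protein-coding starts, to -1.09 as the median of its peaks, and to -1.09 without its largest peak. The assignment rules differ in which peaks they count, while the median weighs the same 10 peaks equally. Of 62 alternative values of the other 8 genes, 47 stayed within 0.1 of the value given and 15 moved by more, with a range from -0.32 to 0.82. The sign changed in 5 of these 62 values. *Mcl1* went from -0.14 to 0.095 with any RefSeq transcript and without its largest peak, *Bnip3* from -0.31 to 0.02 in the gene body and without its largest peak, and *Bak1* from -0.07 to 0.13 in the gene body. *Bcl2* kept its sign but moved by more than 0.1 in 6 settings and stayed in 2. Its 0.59 became 0.28 with any RefSeq transcript, within 50 kb and as the median of its peaks. It was 0.35 with protein-coding starts and in the gene body, and 0.82 without the start peak, the largest *Bcl2* peak by control mean. Depth per library is unknown, so counting error could not be given.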
